A study of Mus musculus with 2 samples.

Results

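The glutamate, GABA, glycine and nicotinic acetylcholine receptor genes were taken as every gene probe on both arrays whose gene name began with Gria, Grik, Grin, Grid, Grm, Gabr, Gabbr, Glra, Glrb, Chrna or Chrnb, leaving out 2 gene names with these beginnings that belong to no receptor subunit. This gave 113 probes for 64 genes, of 19465 genes on the array: 18 ionotropic glutamate, 8 metabotropic glutamate, 20 GABA, 5 glycine and 13 nicotinic acetylcholine receptor genes. Expression was measured on 2 one-colour Agilent arrays of R1, a mouse line of embryonic stem (ES) cells. The day 0 array carried RNA of undifferentiated ES cells grown on mitotically inactive fibroblast feeders in 15% fetal bovine serum with leukaemia inhibitory factor at 1000 U/ml. The day 6 array carried RNA of embryoid body cells from a direct neural differentiation, named neural precursors in the label. With 1 array per group there is no replicate check, so every difference compares these 2 arrays and carries no p-value.

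Neurotransmitter receptors of these classes are assembled from several subunits, each from its own gene. AMPA, kainate and NMDA receptors are cation channels opened by glutamate, GABA-A and glycine receptors are chloride channels, and nicotinic receptors are cation channels opened by acetylcholine, while metabotropic glutamate and GABA-B receptors signal through G proteins. In the embryonic nervous system many subunits are made before synapses form, and GABA is known to act on progenitors and young neurons.

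The labels were checked against marker genes. Each of the 9 pluripotency markers measured was present on day 0 and at least 2-fold lower on day 6. Of 14 neuronal markers, 11 were at least 2-fold higher on day 6, as were 7 of 10 neural progenitor markers. Of 10 astrocyte and oligodendrocyte markers measured, 6 were at least 2-fold higher and 1 lower, 5 were seen on day 6 only, and Gfap was above background on neither array; their part in the receptor differences was not tested. Of 14 fibroblast markers, 8 were at least 2-fold lower on day 6 and 1 was higher, and 9 of 10 epithelial markers were also lower. The 2 arrays shared a slide and a scan but not a position on it, and position and group cannot be told apart. In bulk RNA, fewer cells of a type and less RNA per cell cannot be told apart.

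Many more receptor genes were above background on day 6 than on day 0. The scanner software called 19 of the 64 genes (29.7%) well above background on day 0, against 70.8% of all genes, and 35 (54.7%) on day 6, against 72.8% of all genes. Of the 64, 17 genes (26.6%) were above background on day 6 alone, against 6.06% of all genes, and 1, Chrna9, on day 0 only, against 4.08%. Both arrays showed 18 genes and neither showed 28 (43.8%), against 23.1% of all genes. By class, the genes above background went from 6 to 13 of 18 for ionotropic glutamate, from 9 to 14 of 20 for GABA, from 0 to 2 of 5 for glycine and from 4 to 6 of 13 for nicotinic receptors, and stayed at 0 of 8 for metabotropic glutamate receptors.

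**Figure D1:**
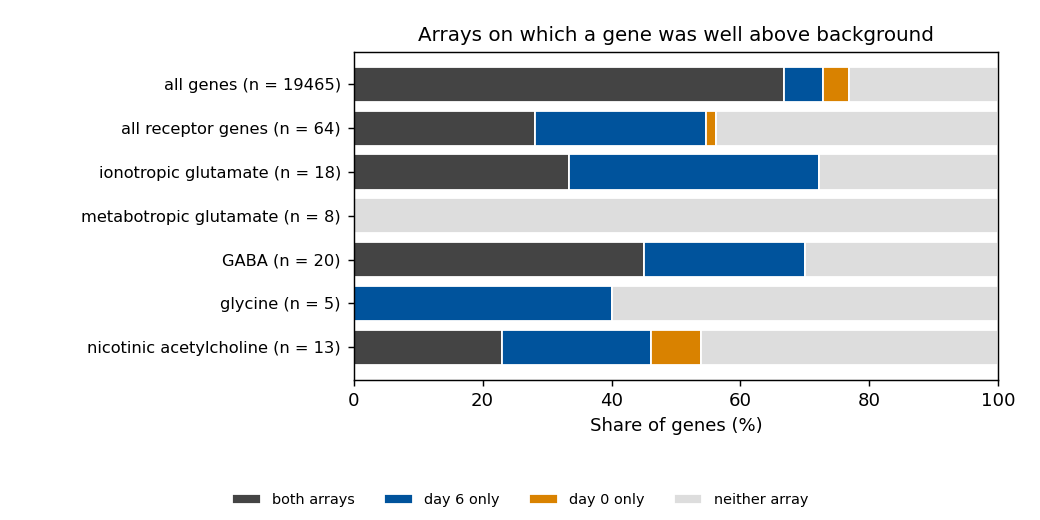
Share of genes (%) well above background on both arrays, on day 6 only, on day 0 only or on neither array, for all 19465 genes, all 64 receptor genes and each receptor class. The day 6 only share is 26.6% of receptor genes and 6.06% of all genes, and every metabotropic glutamate receptor gene falls under neither array.

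For 36 receptor genes a day 6 against day 0 difference could be given, after each array was scaled to its 75th percentile. Of these, 12 were at least 2-fold higher on day 6, where 17.8% of all genes measured were higher, and 4 were at least 2-fold lower, where 20.1% of all genes were lower. At 4-fold, 9 were higher (7.35% of all genes) and 1 was lower (8.35% of all genes). The median difference was 0.27 log2 units, against -0.09 over 14966 genes. The 17 genes that entered through day 6 alone could not take a value below 0, so the filter partly sets this median. Of the 12 higher genes, 8 were not above background on day 0, against 531 of 2661 higher genes over the array. Among the 18 genes above background on both arrays, 4 were at least 2-fold higher and 3 lower, with a median of -0.20. Over all 12967 genes above background on both arrays, 2130 were higher and 2339 lower, with a median of -0.12. The receptor genes seen on both arrays thus lay near all genes. Where a gene was above background on 1 array only, the other array was set to the lowest signal the software called above background there, or to the gene's own signal if that was larger, and the fold is written as "at least". For 8 of the 17 genes seen on day 6 only, the day 0 value was a floor that the software puts in place of a subtracted intensity, between 20.4 and 26.3 units for receptor probes, so these low values have no order among them. The plot of intensities shows both values of each gene named here; levels of different genes come from different probes and are not compared.

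**Figure D2:**
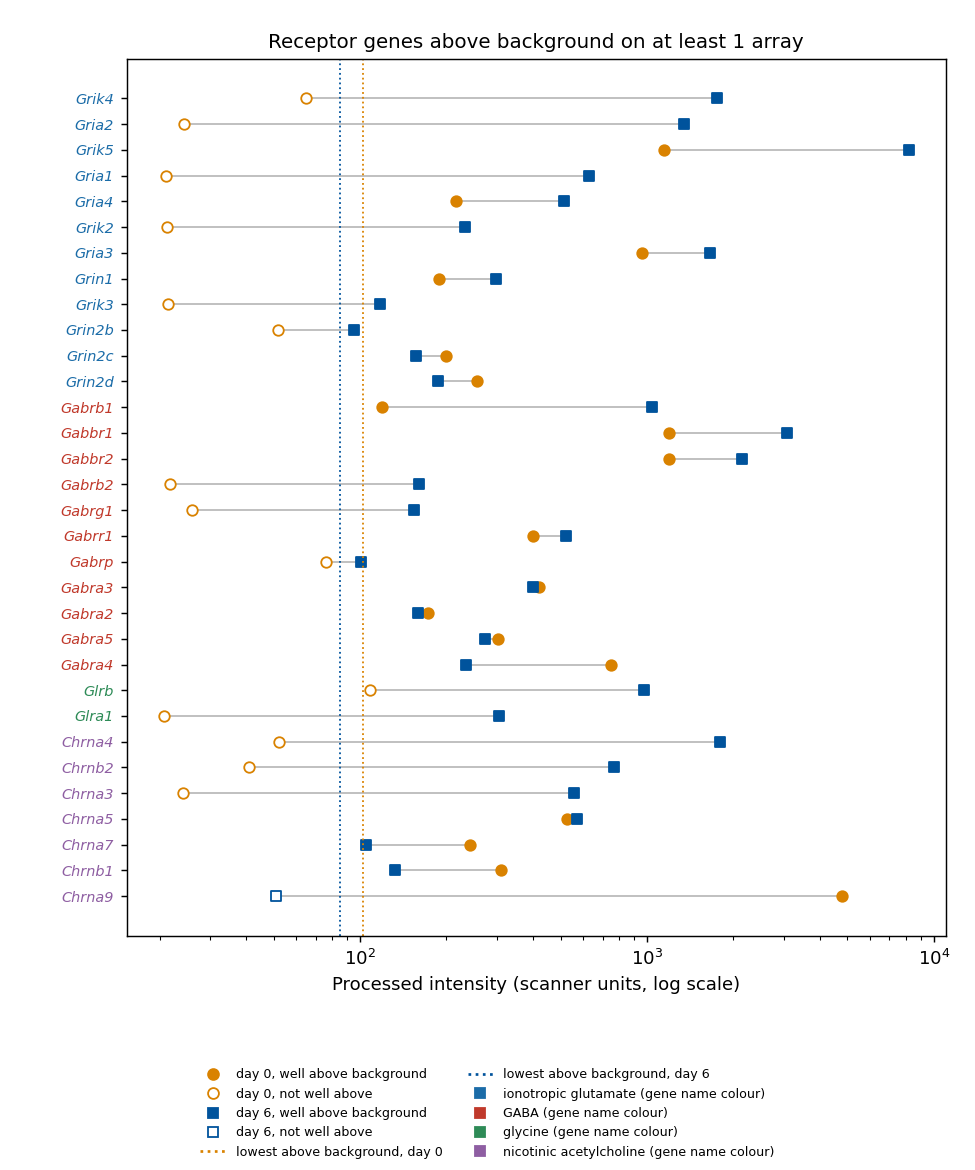
Processed intensity (scanner units, log scale) of 32 receptor genes above background on at least 1 array, day 0 as circles and day 6 as squares, filled where the array's call was well above background; dotted lines mark the lowest intensity called above background, 102 on day 0 and 85.2 on day 6. Gene names are coloured by class, and 14 of the genes plotted have an open day 0 circle while Chrna9 alone has an open day 6 square.

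Among AMPA receptor genes, which encode the fast glutamate-gated channels of excitatory synapses, all 4 were detected on day 6, and 3 were at least 2-fold higher there. Gria2, whose subunit limits the calcium entry of AMPA receptors, had 24.3 units of intensity on day 0 against 1352 on day 6, at least 11.3-fold higher (probe at chr3:80793353-80793412, minus strand, mm7). Gria1 had 21.1 on day 0 and 627 on day 6, at least 5.25-fold higher. Both genes were thus seen on day 6 only, and neither value on day 0 was distinguishable from background. Gria4 was above background on both arrays, with 215 on day 0 and 515 on day 6, a 2.05-fold difference (log2 1.04, software error SD 0.25). Gria3 had 961 on day 0 and 1664 on day 6, which is 1.48-fold higher and under the 2-fold mark. Gria4 lies close to that mark and was under it with other background corrections and scalings, down to a log2 difference of 0.72.

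Of the 5 kainate receptor genes, 4 were detected on day 6 and 2 were at least 2-fold higher there. Grik4 had 64.9 on day 0 and 1751 on day 6, at least 14.7-fold higher (chr9:42454857-42454916, minus strand, mm7). Grik5 was above background on both arrays, with 1149 on day 0 and 8161 on day 6, 6.08-fold higher (log2 2.60, software error SD 0.21). These genes encode the subunits that raise the receptor's affinity for kainate and do not form channels alone. Of the subunits that can form channels alone, Grik2 had 21.2 on day 0 and 232 on day 6, at least 1.94-fold higher. Grik3 had 21.5 and 117, above background on day 6 only and too dim for a fold. Grik1 was above background on neither array. Both high-affinity subunit genes thus passed 4-fold, while the bounds of Grik2 and Grik3 are limited by their low day 6 signal and were not compared with them.

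No NMDA receptor gene passed 2-fold in either direction. Grin1, the obligatory subunit, had 188 on day 0 and 297 on day 6, 1.36-fold higher (log2 0.44, software error SD 0.28). Grin2c had 200 on day 0 and 157 on day 6, and Grin2d had 256 and 187, with log2 differences of -0.57 and -0.68. Grin2b, a subunit of embryonic and early postnatal brain, had 52.0 on day 0 and 95.6 on day 6, above background on day 6 only and without a fold. Grin2a, Grin3a and Grin3b were above background on neither array. Of the delta receptor genes, whose channels glutamate does not open, Grid1 was above background on neither array. The median over the 13 ionotropic genes measured was 0.57, with 5 genes at least 2-fold higher and 0 lower, and over the 6 seen on both arrays it was 0.50, with 2 higher.

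None of the 8 metabotropic glutamate receptor genes was above background on either array. These encode the G protein-coupled glutamate receptors, which act at synapses and on glia. Their signals give an upper limit only, and a transcript below the arrays' sensitivity would look the same.

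**Figure D3:**
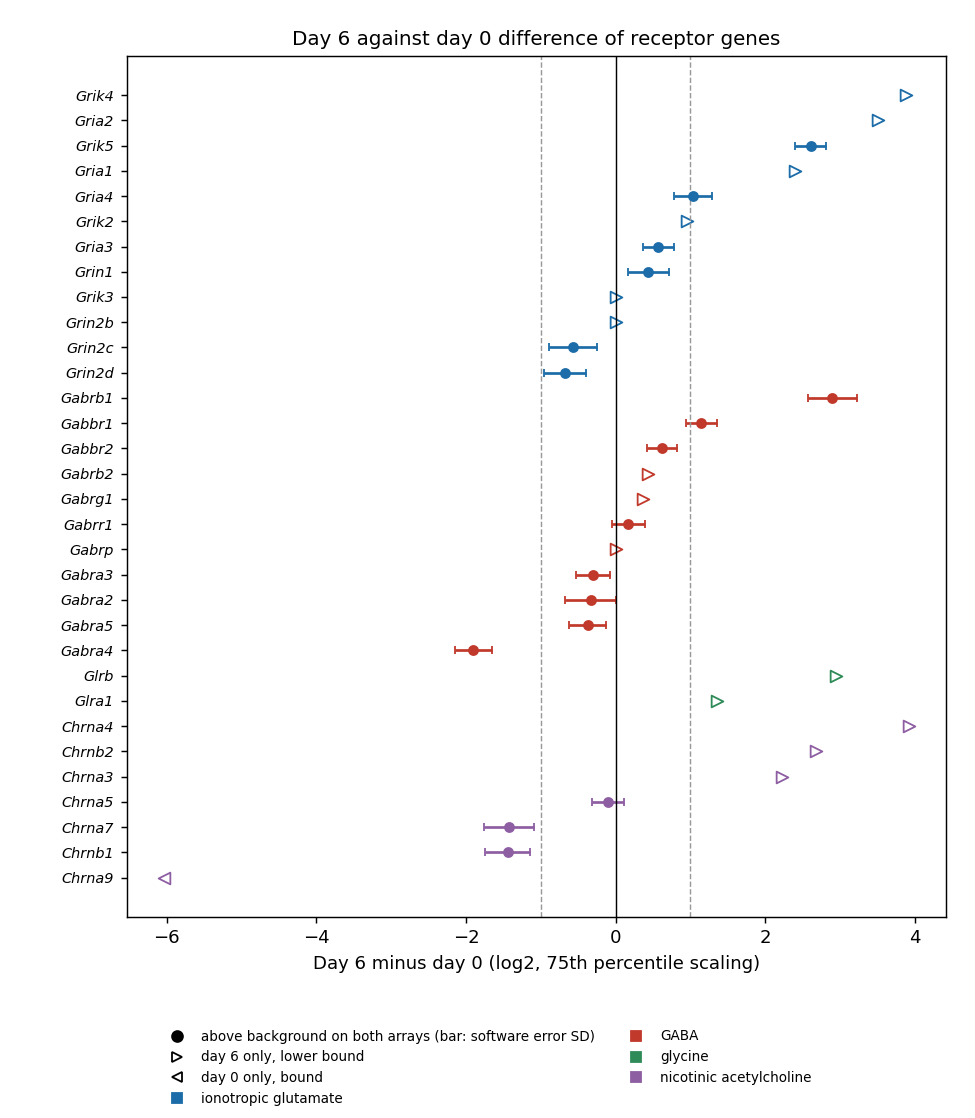
Day 6 minus day 0 difference (log2, each array scaled to its 75th percentile) of 32 receptor genes measured; filled circles with the software's error SD are genes above background on both arrays, and open triangles are bounds, placed at 0 where no fold could be given. Dashed lines mark 2-fold; Chrna9 at -6.03 is the only gene over 4-fold lower, and Chrna4, Grik4 and Gria2 have bounds of 3.50 or more.

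Among the GABA-A receptor genes measured, a pair passed 2-fold, in opposite directions. Gabrb1, a beta subunit gene, had 119 on day 0 and 1037 on day 6, 7.44-fold higher (log2 2.90, software error SD 0.33; chr5:71507288-71507347, plus strand, mm7). Gabra4, an alpha subunit gene, had 750 on day 0 and 234 on day 6, 3.74-fold lower (log2 -1.90, software error SD 0.24; chr5:70941825-70941884, minus strand, mm7). The other 10 GABA-A genes measured did not pass 2-fold on their brightest probes. For 5 of them, seen on day 6 only, the value is a lower bound, so a larger difference is possible. Gabra2 had 172 on day 0 and 159 on day 6. Gabra3 had 421 and 400, and Gabra5 had 302 and 273. These 3 had log2 differences between -0.37 and -0.30. Gabrr1, which encodes a rho subunit known from retina, had 399 on day 0 and 524 on day 6, 1.12-fold higher.

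Some GABA-A genes were above background on day 6 only. Gabrb2, by the probe that carries its name, had 21.8 on day 0 and 161 on day 6, at least 1.35-fold higher. Gabrg1, a gamma subunit gene, had 26.1 on day 0, the mean of 9 spots after 1 outlier spot was left out, and 154 on day 6 over 10 spots, at least 1.29-fold higher. Gabrp, which encodes the pi subunit, had 76.2 and 101 and was too close to background on day 6 for a fold. By the probes that carry their names, Gabra6, Gabrd, Gabre, Gabrg3, Gabrq and Gabrr2 were above background on neither array.

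Both GABA-B genes were above background on both arrays. Gabbr1, the subunit that binds GABA, had 1196 on day 0 and 3088 on day 6, 2.21-fold higher (log2 1.15, software error SD 0.21), and 0.61 on the log2 scale when its probes were averaged. Gabbr2, the subunit that couples to the G protein, had 1190 on day 0 and 2136 on day 6, 1.54-fold higher. Over the 14 GABA receptor genes measured, 2 were at least 2-fold higher, 1 was lower, and the median was 0.00, or -0.30 over the 9 seen on both arrays.

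Glycine receptor genes were above background on day 6 only. Glrb, the beta subunit that anchors the receptor to gephyrin, had 109 on day 0 and 975 on day 6, at least 7.69-fold higher. Glra1, an alpha subunit gene, had 20.7 on day 0 and 305 on day 6, at least 2.55-fold higher, though the log2 difference was as low as 0.84 with other background corrections. Glra2, which is known as the embryonic alpha subunit gene, Glra3 and Glra4 were above background on neither array. The median of the 2 genes measured was 2.15, but both entered through day 6 alone, which fixes its direction. Over all 5 genes with no filter on dim probes the median was -0.46. That is the value of a Glra3 probe whose signals on both arrays were software floors, so it carries no information on expression.

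Nicotinic receptor genes differed in both directions. The alpha gene Chrna4 had 52.1 on day 0 and 1800 on day 6, at least 15.1-fold higher (chr2:181523517-181523576, minus strand, mm7). Chrnb2, whose beta subunit pairs with that of Chrna4 in the most common nicotinic receptor of brain, had 41.1 on day 0 and 765 on day 6, at least 6.41-fold higher. Chrna3, known from autonomic ganglia, had 24.1 on day 0 and 558 on day 6, at least 4.67-fold higher. All 3 were thus seen on day 6 only. Beside this, 7 of 12 neural crest and sensory ganglion markers were at least 2-fold higher and 3 were lower on day 6; their part in the Chrna3 difference was not tested. Chrna5, an accessory alpha subunit gene, was level, with 527 on day 0 and 572 on day 6, which differ by -0.10 on the log2 scale (software error SD 0.22). Chrnb4, which pairs with Chrna3 in ganglia, was above background on neither array.

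3 nicotinic genes were lower on day 6. Chrna9, known from the hair cells of the inner ear, had 4782 on day 0 and 51.0 on day 6, at least 65.6-fold lower. Chrna7, which forms receptors of its subunit alone, had 241 on day 0 and 105 on day 6, 2.68-fold lower (log2 -1.42, software error SD 0.34). Chrnb1, the beta subunit of the muscle receptor, had 309 on day 0 and 133 on day 6, 2.72-fold lower (log2 -1.44, software error SD 0.30). With other background corrections, the log2 differences of Chrna7 and Chrnb1 were as small as -0.89 and -0.96, under 2-fold. Its muscle partner Chrna1, together with Chrna2, Chrna6, Chrna10 and Chrnb3, was above background on neither array. Of 14 skeletal muscle markers, Myod1, Myf5, Myf6, Myog and Ckm were above background on neither array, and 4 of the 9 measured were at least 2-fold lower on day 6. Beside these 3 genes and Gabra4, 8 of 14 fibroblast, 9 of 10 epithelial and 9 of 9 pluripotency markers measured were at least 2-fold lower on day 6; their part in these differences was not tested. The median over the 7 nicotinic genes measured was -0.10, with 3 higher, 3 lower and 1 under 2-fold. All 3 higher genes entered through day 6 alone, and the 3 genes above background on both arrays had a median of -1.42, with 0 higher and 2 lower.

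Chrna9 was read by 2 probes, and both were lower on day 6. The second probe had 1993 on day 0 and 26.5 on day 6, at least 27.3-fold lower. The first 30 bases of each 60-base probe are shown for Chrna9 and, below, for Gabra5, as examples. The starts of the Chrna9 probes lie 228 bases apart on the plus strand, at chr5:65332022-65332081 and chr5:65331794-65331853 (mm7).
Chrna9 brighter probe: tgtcatgaccgtcttgatcatagcaagagc
Chrna9 second probe: aaagaaggaactgagaaaactcctaaagaa

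Several receptor genes gave different values from different probes. Of the 64 genes, 30 had several probes, 11 had several above background, and in 7 of these 11 the values, bounds included, differed by over 1 log2 unit. Among them were Chrna4, Chrna9, Gabbr2, Gabra5, Gria1 and Gria3. For Chrna4, Chrna9 and Gria1 both values are bounds, so the gap between them is not a measured gap. Before bounds were set, the Chrna9 probes had log2 differences of -6.77 and -6.46. In 0 of the 11 did probes pass 2-fold in both directions. The other Chrna4 probe had 58.6 on day 0 and 147 on day 6, at least 1.23-fold higher. For Gria1 the other probe had 21.3 and 164, at least 1.37-fold higher, and for Gria3 the other probes were 1.06-fold and 3.02-fold higher. The Gabbr2 probes disagreed in direction, the other one having 1101 on day 0 and 823 on day 6, 1.56-fold lower. Chrna3 was higher on both probes, the other having 22.1 and 378, at least 3.16-fold higher. For Gria2, 2 other probes were above background on neither array, and the second Chrna7 probe was not either.

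Gabra5, level on its brightest probe, was lower on day 6 by its other. The other Gabra5 probe had 548 on day 0 and 67.2 on day 6, at least 7.51-fold lower, and starts 81230 bases from the first, at chr7:53650609-53650668 against chr7:53731839-53731898 (minus strand, mm7). Both probes carry the same transcript record in the files. The cause of this gap was not tested.
Gabra5 level probe: cgaatcacgcaggtgcgaacagacatctat
Gabra5 lower probe: ctgtggacatttaagtccagtacgaattgc

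**Figure D4:**
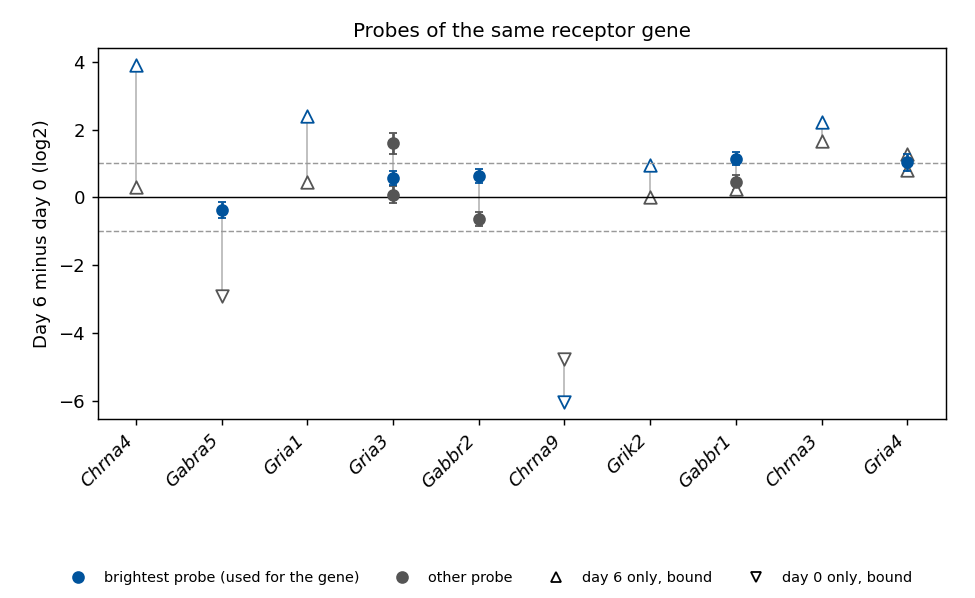
Day 6 minus day 0 difference (log2) of each probe above background, for 10 receptor genes with several such probes, ordered by the gap between plotted values; blue marks the brightest probe, used for the gene, bars are the software's error SD and open triangles are bounds. Chrna4 probes lie at 0.30 and 3.91, both of them bounds, Gabra5 probes at -2.91 and -0.37, and both Chrna9 probes below -4.

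4 probes carry older clone names in the files but belong to receptor genes by the RefSeq gene table of GRCm38.p6, and they were added as an alternative after the data were seen. 2 of them read Gabrb2, with 78.9 on day 0 and 800 on day 6 (at least 6.70-fold higher) and with 22.1 and 2403 (at least 20.1-fold higher). Gabrb2, at least 1.35-fold higher by its named probe, thus passed 4-fold by both. The Grik2 probe had 20.8 on day 0 and 194 on day 6, at least 1.62-fold higher, and the Gabrg3 probe had 132 on day 0 and 17.0 on day 6, at least 1.80-fold lower. With these probes, 13 of 37 receptor genes were at least 2-fold higher and 4 lower.

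Several receptor genes are neighbours in the genome, by the gene order of the same table, and neighbours did not always share a direction. Gabra4 and Gabrb1 on chromosome 5 are next to each other and differed in opposite directions, 3.74-fold lower and 7.44-fold higher. A RefSeq start of each lies 387 bases from that of the other, on opposite strands, so that the genes overlap there. Gabrb1 has a second RefSeq start, farther from Gabra4, at chr5:71699932 (GRCm38.p6). In the same cluster, Gabra2 was under 2-fold, and Gabrg1, seen on day 6 only, was at least 1.29-fold higher. Cox7b2, the gene between Gabra2 and Gabra4, had 231 on day 0 and 20.0 on day 6. It was above background on day 0 only and at least 3.17-fold lower on day 6. Gria2 and Glrb, adjacent on chromosome 3, were both seen on day 6 only and both at least 4-fold higher. Glra1 and Gria1 on chromosome 11, with Nmur2 between them, were likewise both seen on day 6 only. In the nicotinic cluster on chromosome 9, Chrna5 was level, Chrna3 at least 4.67-fold higher and Chrnb4 at background. Next to Chrna9, Rbm47, an RNA-binding protein gene, had 3978 on day 0 and 164 on day 6, 28.3-fold lower, while its other neighbour, Rhoh, was above background on neither array.

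Promoter sequence was searched because REST, a repressor of neuronal genes in ES cells and other non-neuronal cells, is known to bind a site called RE1. RefSeq windows of 300 bases, from 250 before to 50 after each start (GRCm38.p6), covered 45 of the 64 genes with 53 windows, and 32851 windows in all. The core of RE1, searched on both strands with its middle 2 bases free, was in 17 of all windows (0.0517%) and in 1 receptor window, that of Gria2, on the strand opposite to the gene and 170 bases before its start. A form of it 1 base longer was in 12 windows and in 0 receptor windows. The palindromic site of NRF1, a regulator of synaptic and respiratory genes, was in 319 windows (0.971%) and in 1 receptor window, that of a second start of Gabrb1, 16 bases before it. The cAMP response element TGACGTCA (588 windows, 1.79%) and the POU octamer ATGCAAAT (570 windows, 1.74%) were in 0 receptor windows, searched on both strands. A match is only a match of letters. Both stretches with a match are shown because they lie before genes that were at least 4-fold higher, with the matched letters, which spell the core or site searched, in capitals, at chr3:80802946-80803045 (minus strand) for Gria2 and chr5:71699832-71699931 (plus strand) for Gabrb1, both GRCm38.p6.
Gria2 promoter: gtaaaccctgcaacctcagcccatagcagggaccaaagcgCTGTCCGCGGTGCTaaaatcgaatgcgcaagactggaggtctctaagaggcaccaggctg
Gabrb1 second promoter: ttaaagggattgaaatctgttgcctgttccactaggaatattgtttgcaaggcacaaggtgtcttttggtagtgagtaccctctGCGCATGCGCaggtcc

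Genes that work with the receptors were read from lists, beside the 17.8% and 20.1% of all genes that were higher and lower. Of 31 glutamate receptor partners, 21 were measured, 6 were at least 2-fold higher and 3 lower, with a median of 0.18. Those higher were led by Cbln1 (11.2-fold), which bridges delta receptors to axons, Cacng4 (3.91-fold), an AMPA receptor auxiliary subunit, and Grip1 (3.88-fold), an AMPA receptor scaffold, whose other probes lay between 0.24 and 2.26 on the log2 scale. Those lower were Nptx2 (2.63-fold), a pentraxin that gathers AMPA receptors, Shank3 (2.47-fold), a postsynaptic scaffold, and Pick1 (2.27-fold), which binds AMPA receptor tails; another Pick1 probe had a log2 difference of 0.16. Of 9 glutamate supply and uptake genes measured of 11, 3 were higher and 1 was lower, with a median of 0.36. The glial transporter Slc1a2 was at least 19.8-fold higher, with another probe at 0.77 on the log2 scale, the vesicular transporter Slc17a6 4.92-fold higher and the transporter Slc1a3 3.57-fold higher, although other Slc1a3 probes had log2 differences of -1.31 and -1.17. Gls2, a glutaminase, was 3.14-fold lower.

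Genes of GABA and glycine supply, uptake and chloride transport were mostly higher where measured: 6 of 10 measured of 12 were at least 2-fold higher and 1 was lower, with a median of 1.67. Gad2, which makes GABA, was at least 9.51-fold higher, while another gene of the list that makes GABA was under 2-fold. Abat, which breaks GABA down, was 5.41-fold higher and the glycine transporter Slc6a9 4.78-fold higher, while the transporter Slc6a12 was at least 2.25-fold lower. Of the 12 GABA-A and glycine receptor partners, all measured, 5 were higher and 2 lower, with a median of 0.41. Nlgn2, the adhesion molecule of inhibitory synapses, was 3.55-fold higher and the trafficking factor Gabarap 2.20-fold higher. Ubqln1, which slows subunit breakdown, was 2.25-fold lower, with other probes between -1.01 and -0.24 on the log2 scale, and Nsf, a trafficking ATPase, 2.15-fold lower.

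On the cholinergic side, 2 of 6 genes of acetylcholine supply and breakdown measured of 7 were higher and 0 lower, with a median of 0.41: Bche (2.85-fold) and Ache (at least 2.69-fold), both of which break acetylcholine down. Of 9 nicotinic assembly and clustering genes measured of 11, 4 were higher and 1 was lower, with a median of -0.13. Ly6h, a modulator of nicotinic receptors, was 27.9-fold higher, Tmem35a, a chaperone of nicotinic receptors, 11.2-fold higher and Lrp4, the agrin receptor, 5.24-fold higher. Rapsn, which clusters the muscle receptor, was at least 2.36-fold lower. Of the 8 muscarinic receptor genes and remaining muscle nicotinic genes (Chrnd, Chrne, Chrng), 4 were measured, and 1 was higher: Chrng, the fetal muscle gamma subunit, with 22.3 on day 0 and 419 on day 6, at least 3.51-fold higher. The median of these 4 was 0.19.

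**Figure D5:**
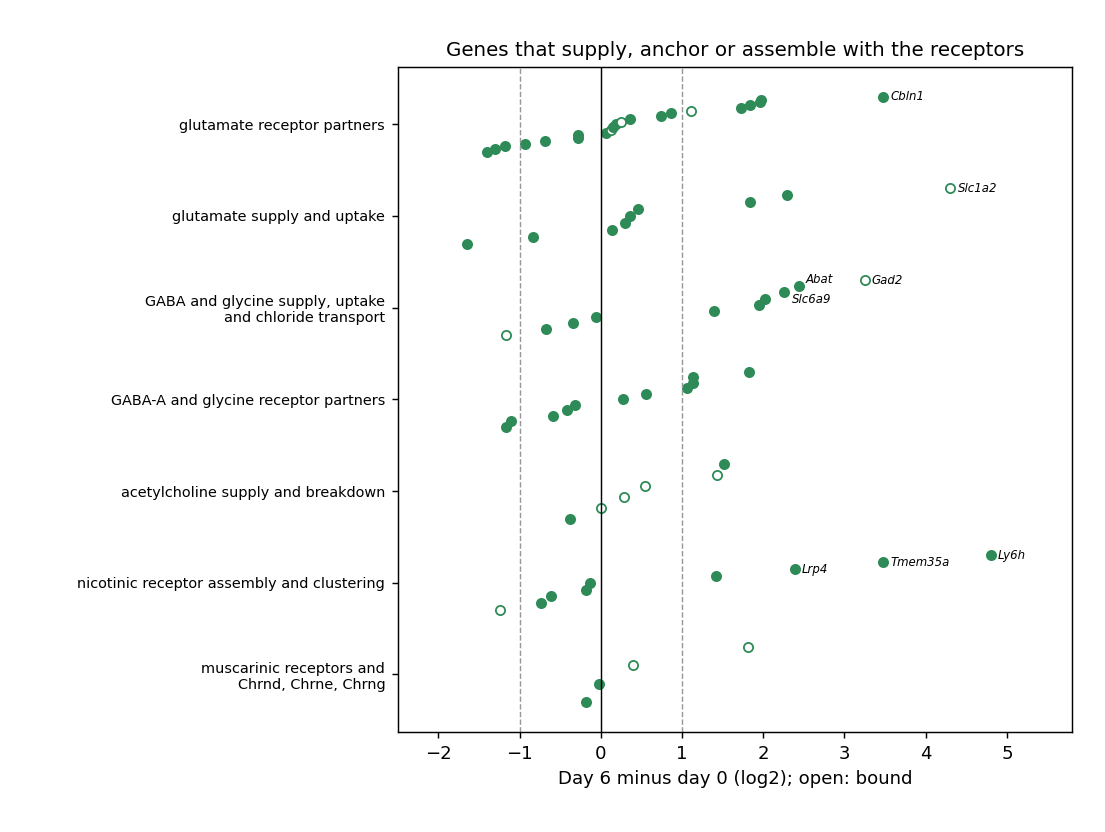
Day 6 minus day 0 difference (log2) of measured genes of 7 lists of genes that supply transmitter to the receptors or anchor or assemble with them, 1 point per gene and open where the value is a bound; dashed lines mark 2-fold. The points farthest right are Ly6h (27.9-fold), Slc1a2 (at least 19.8-fold), Cbln1 (11.2-fold) and Tmem35a (11.2-fold).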

How the data were processed

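The members and gene lists were chosen with earlier results of these data known. Per the labels, Trizol and a Qiagen kit yielded the total RNA, and Cy3 was the dye. Per the file headers, the arrays (design 014868) were extracted with Feature Extraction 9.5.3.1, and the deposited intensity of each spot is background-subtracted and detrended. Probe positions are in mm7 (NCBI build 35), per the file headers. The authors also deposited a table on a log2 scale whose sorted columns differ by at most 0.000469, so both arrays had been given the same distribution; its median was 8.53 in both columns, the sources used here do not give its steps, and its differences had a Pearson r of 0.989 with those of the scanner files across 41043 probes, which are not independent replicates. Scale and direction were settled by this comparison, and its centring stays unknown.

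Of 45018 spots per array, control spots and outlier spots (186 on day 0, 216 on day 6, 1 of them a receptor spot) were left out, spots of a probe were averaged as log2 intensity, and the array's 75th percentile (3758 on day 0, 4388 on day 6) was subtracted. No receptor spot was saturated. A probe counted as above background where over 50% of its spots did, which was 61.5% of probes on day 0 and 65.5% on day 6. A gene's value is that of its brightest probe by mean log2 intensity, among probes above background on an array. Receptor genes above background are named with values, and from each list up to 3 genes per direction past 2-fold; some genes are counted but not reported here by name. Genes other than receptors were named through a RefSeq table (GRCm38.p6), used for names and gene order, and of the receptor probes 80 matched it by accession and 33 by symbol. The software error SD of a difference (median 0.20 log2 units) covers the spot only. The number of arrays, 1 per group, limits the precision. The script was tested on simulated data. Normexp used limma 3.58.1 in R 4.3.3, and the rest, quantile normalization included, Python 3.11.15. The alternatives changed the background correction, scaling, filter, bound, probe rule, outlier spots, gene names and source of values, 1 at a time.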

Additional observations from a re-analysis of the deposited data

How the results depend on the processing

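Of the 16 receptor genes past 2-fold, 11 stayed past it in the same direction under each alternative that gave them a value. The other 5 fell under it in at least 1: Gria4, Glra1, Chrna7, Chrnb1 and Gabbr1. Each gene had a value in 11 or 12 of the 13 alternatives. Genes seen on 1 array only had none where both arrays had to be above background. None of the 16 changed direction. The 8 higher genes seen on day 6 only, and Chrna9, could not do so wherever a bound was used, because a bound stops at 0. Receptor genes at least 2-fold lower numbered 4 as reported, 2 without background subtraction, 9 with no filter on dim probes and 8 with each probe counted on its own. Those at least 4-fold lower numbered 1 as reported, 2 with median scaling, 2 without a filter, 2 when probes of a gene were averaged, 5 with each probe counted, and 0 when genes had to be above background on both arrays. That filter also left 4 genes past 2-fold higher and 2 past 4-fold higher, and gave medians of -0.30 for GABA and -1.42 for nicotinic genes; it removes the genes seen on 1 array. With measured values in place of bounds, 15 genes were at least 4-fold higher and the medians were 0.29 for GABA and 3.30 for glycine genes. With no filter the glycine median was -0.46, a value set by software floors, since 3 of its 5 genes are above background on neither array. The median over all genes moved under median scaling from -0.09 to -0.20. Metabotropic receptors gave no median in any setting that needs a gene above background, and glycine receptors gave none under the both-array filter. No paired analysis was possible because each group had 1 array, and no replicate could be left out. Signal over background limits the 28 genes above background on neither array.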
